A study of Oryza sativa with 4 samples.

Results

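In rice seedlings, 97 of 55985 listed genes were expressed in the indica cultivar 93-11, with at least 1 RPKM (reads scaled to gene length and library size) in both of its libraries, and were at exactly 0 in both libraries of the japonica cultivar Nipponbare. That the values are RPKM was inferred from the values themselves, since no source used here names their unit. The genes were thus chosen by their RPKM in these same 4 libraries, so the difference between cultivars is described here and not tested. The groups were chilled 93-11, untreated 93-11, chilled Nipponbare and untreated Nipponbare, each 1 library made from pooled aerial parts of seedlings 15 days old. Chilled seedlings had spent 33 h at 4 °C ± 1, after growth in a greenhouse held at 28 °C in the day and 25 °C at night. Untreated seedlings were not chilled. With 1 pool per group there is no replicate check, and pooling hides differences between plants. In such pools, fewer cells of a type and less RNA per cell cannot be told apart.

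Japonica and indica are the main subspecies of cultivated rice, and their genomes differ by many insertions, deletions and sequence changes. A gene of which a cultivar has no transcript may be missing from its genome, may have lost its promoter or be methylated, or may be active only in other tissues or conditions. Locus ids of the form LOC_Os are those of the annotation of the Nipponbare genome, so each gene with such an id has a model in the genome of the cultivar in which it was silent. The files give no gene descriptions, and the RefSeq table used here holds 0 of the files' ids, so the genes are named by locus id and no function is given.

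Library totals worked out from the values were 13012799 reads in chilled 93-11, 16682882 in untreated 93-11, 13482486 in chilled Nipponbare and 12671333 in untreated Nipponbare. Leaf genes marked the tissue, and RCA lay between 2578 and 14368 RPKM in the 4 libraries. CAB1R, a light-harvesting protein gene, was at 52.1 RPKM in chilled and 5019 RPKM in untreated 93-11, and at 13.4 RPKM in chilled and 4474 RPKM in untreated Nipponbare. PORA was likewise lower in the chilled libraries, at 20.3 RPKM in chilled 93-11 and 8.31 RPKM in chilled Nipponbare. The root transporter genes LSI1 and HKT2;1 lay between 0.355 and 6.09 RPKM in the 4 libraries, and the shoot meristem genes OSH1 and OSH15 were at 0.072 RPKM or less. The 97 genes held 7388 reads in chilled 93-11, 0.0579% of the reads recovered there, and 9918 reads in untreated 93-11, or 0.0609%.

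Silence in Nipponbare was rare among genes expressed in 93-11. The 97 genes were 0.626% of the 15498 genes with at least 1 RPKM in both 93-11 libraries. The mirror set, at least 1 RPKM in both Nipponbare libraries and 0 in both 93-11 libraries, held 342 genes. These were 2.14% of the 16018 genes expressed in Nipponbare by the same minimum. LOC_Os ids are Nipponbare gene models, so a gene absent from the Nipponbare genome has no such id, while a gene absent from 93-11 can have one. Both counts are therefore not like for like, and the part of this in them was not tested. Without the minimum the order of both counts turned round. There were 4956 ids at 0 in both Nipponbare libraries and above 0 in a 93-11 library. The other way, 4138 ids were at 0 in both 93-11 libraries and above 0 in a Nipponbare library. Here 1 read is enough, and untreated 93-11 was the deepest library, at 16682882 reads. The part of depth in this order was not tested. Genes just past the limit were fewer than those at 0, since 27 genes expressed in 93-11 had 1 read over the Nipponbare libraries, 30 had 2 reads and 17 had 3 reads. The most abundant of those with 1 Nipponbare read was LOC_Os03g17410, at 66.9 RPKM in chilled and 20.1 RPKM in untreated 93-11. When chilled Nipponbare alone had to be at 0, with untreated Nipponbare left out, 151 genes met the rule.

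**Figure D1:**
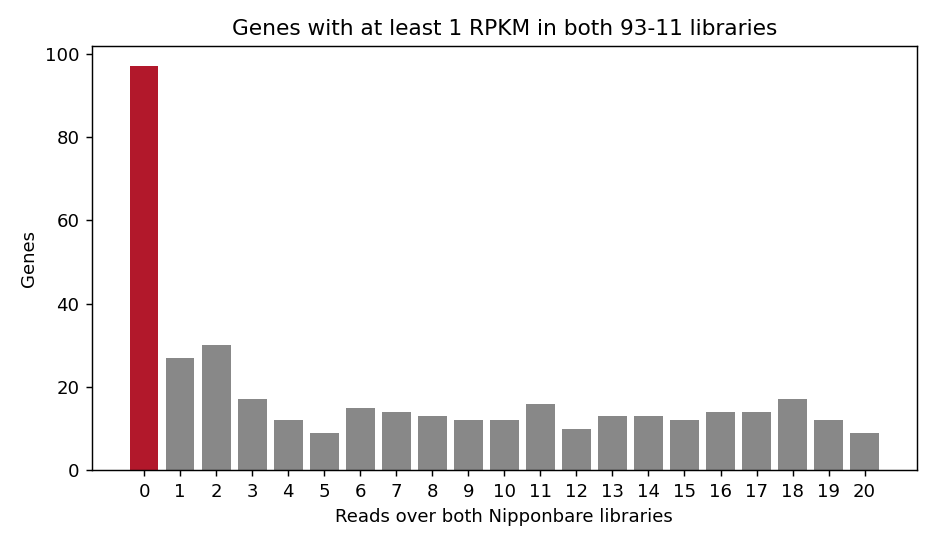
The plot counts genes with at least 1 RPKM in both 93-11 libraries (vertical axis) by their reads summed over both Nipponbare libraries (horizontal axis), from 0 to 20 reads. The bar at 0 holds the 97 genes described here, and the next bars hold 27, 30 and 17 genes, while 15110 genes with over 20 reads lie outside the plot.

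At the minimum itself, LOC_Os11g44960 lay just inside, at 1.01 RPKM in chilled and 4.01 RPKM in untreated 93-11. So did LOC_Os04g38250, at 1.01 and 2.03 RPKM, and LOC_Os03g54070, at 1.30 and 1.02 RPKM, in chilled and untreated 93-11. Just outside lay ChrUn79 with 0.961 RPKM in chilled and 1.25 RPKM in untreated 93-11, LOC_Os10g29220 with 2.70 and 0.952 RPKM, and LOC_Os09g23399 with 1.78 and 0.946 RPKM.

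The 97 genes were mostly weakly expressed. Their median was 2.84 RPKM in chilled and 4.30 RPKM in untreated 93-11, beside 10.04 RPKM and 11.23 RPKM for the 15401 other genes expressed in 93-11. In chilled 93-11, 35 of the 97 lay between 1 and 2 RPKM and 8 reached 20 RPKM. In untreated 93-11, 21 lay between 1 and 2 RPKM and 8 reached 20 RPKM. Only 8 were above 10 RPKM in both 93-11 libraries, 11 were above it in chilled 93-11 alone, and 10 in untreated 93-11 alone. The levels of the 97 genes in both libraries had a Spearman rho of 0.46, and those of the other expressed genes 0.67, both cut off below at 1 RPKM. The genes were also short by the smallest whole length that turns the 93-11 values into whole reads, with a median of 618 bases beside 1543 bases for the other expressed genes. That length can be a fraction of the true one where reads are few, and its part in the difference was not tested.

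Reads behind these levels were few. The median was 31 reads in chilled 93-11 and 45 reads in untreated 93-11, and 19 of the 97 genes had fewer than 10 reads in a 93-11 library. LOC_Os03g54070 had 1 read in each 93-11 library. These are the fewest whole reads that fit the values, so true counts can be a whole multiple of them. How far a count of 0 limits Nipponbare was taken from a floor of 3 reads per library, which covers counting error in Nipponbare only. The 93-11 reads were taken as exact, so folds over this floor are not full lower bounds. In both conditions, 84 of the 97 genes were more than 2-fold above this floor, and 38 were more than 10-fold above it. The rule set Nipponbare to 0, so these counts follow the reads in 93-11 and are no test of the cultivars. By whole counting intervals, which is another measure, 0.807% of all 55985 listed ids were over 2-fold higher in 93-11 in both conditions. For 4 genes, which did not exceed the floor in at least 1 condition, a difference between cultivars in that condition was not detectable at this depth with the reads as recovered.

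LOC_Os06g24990, on chromosome 6, was the most abundant of the 97 genes and stood apart by its chilled level. It had 168 RPKM (1232 reads) in chilled 93-11, 3.95 RPKM (37 reads) in untreated 93-11, and 0 in chilled and untreated Nipponbare. Its scaled reads in chilled 93-11 were 419-fold above the floor for chilled Nipponbare. Those in untreated 93-11 were 9.99-fold above the floor for untreated Nipponbare. The log2 ratio of chilled over untreated 93-11 was 5.62, with a 95% counting interval from 5.17 to 6.15. Ratios in this text are of reads scaled by the trimmed mean of M-values (TMM) with 0.5 reads added, the intervals are exact conditional binomial ones for counting error, and a gene counts as higher or lower when its whole interval lies beyond 2-fold.

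A group of abundant genes had intervals inside 2-fold, which is not the same as no change. LOC_Os08g14195, on chromosome 8, had 22.1 RPKM (708 reads) in chilled and 19.97 RPKM (821 reads) in untreated 93-11, a log2 ratio of 0.37 (0.22 to 0.52). Its scaled reads were 241-fold above the floor for chilled Nipponbare and 222-fold above that for untreated Nipponbare. LOC_Os01g41565, on chromosome 1, had 21.3 RPKM (311 reads) in chilled and 26.7 RPKM (499 reads) in untreated 93-11, a log2 ratio of -0.10 (-0.31 to 0.11). On chromosome 5, LOC_Os05g33560 had 28.7 RPKM in chilled and 24.2 RPKM in untreated 93-11, a log2 ratio of 0.47 (0.22 to 0.73). LOC_Os05g46845, on the same chromosome, had 20.8 and 19.9 RPKM, a log2 ratio of 0.29 (-0.06 to 0.64). The intervals of these 4 genes lay inside 2-fold on both sides, as did those of 17 of the 97 genes in all. Those of LOC_Os08g14195 and LOC_Os05g33560 lay wholly above 0. LOC_Os03g14310, also among these 17, had 15.0 RPKM in chilled and 26.4 RPKM in untreated 93-11, a log2 ratio of -0.58 (-0.92 to -0.25). LOC_Os06g09260, the last of the 10 most abundant genes without a call, had 21.7 RPKM (41 reads) in chilled and 14.5 RPKM (35 reads) in untreated 93-11, with an interval from 0.13 to 1.51.

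Other abundant genes were lower in chilled 93-11. LOC_Os09g09630, on chromosome 9, had 12.98 RPKM (153 reads) in chilled 93-11 and 47.8 RPKM (722 reads) in untreated 93-11, the highest untreated level of the 97 genes, a log2 ratio of -1.65 (-1.92 to -1.40). LOC_Os04g12380, on chromosome 4, had 10.7 RPKM (38 reads) in chilled and 45.2 RPKM (205 reads) in untreated 93-11, a log2 ratio of -1.83 (-2.39 to -1.34). LOC_Os08g35305, on chromosome 8, had 6.82 RPKM (11 reads) in chilled and 32.4 RPKM (67 reads) in untreated 93-11. All 3 genes were at 0 in both Nipponbare libraries.

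**Figure D2:**
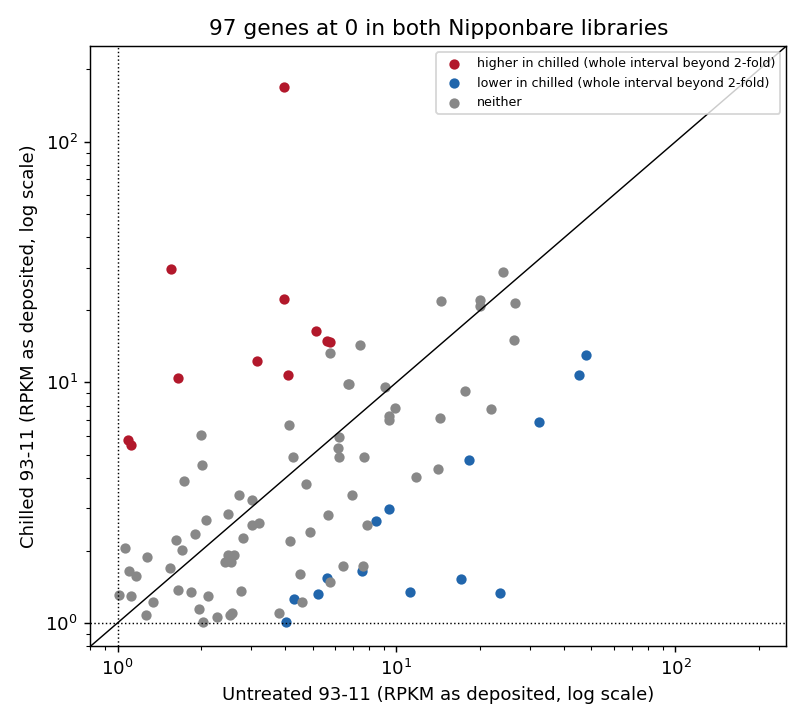
Each point is 1 of the 97 genes, by its RPKM in untreated 93-11 (horizontal, log scale) and in chilled 93-11 (vertical, log scale), with equal levels on the solid line and the minimum of 1 RPKM on the dotted lines. Genes higher in chilled 93-11 (red), led by LOC_Os06g24990 at 168 RPKM, lie above the line, and genes lower in chilled 93-11 (blue) lie below it.

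The next question was how chilling moved these genes within 93-11. Of the 97 genes, 11 were higher in chilled 93-11 (11.3%), beside 19.4% of all 15498 genes expressed in 93-11, and 14 were lower (14.4%), beside 14.4%. The remaining 72 genes were in neither class. With values as deposited, 8 were higher and 18 lower, and the shares of all expressed genes were not counted for that scaling. The median log2 ratio of all genes expressed in 93-11 moved from 0.01 to -0.21 with it. The tilt toward lower is thus not read as a trait of the 97 genes. By the ratio alone, without regard to the interval, 17 (17.5%) were beyond 2-fold higher and 24 (24.7%) beyond 2-fold lower, beside backgrounds of 24.2% and 21.2%. The median log2 ratio was -0.10, beside 0.01 for the other genes, and 43 ratios were above 0 and 54 below. Low reads widen the intervals. The reads of the 97 genes were worked out from 93-11 values alone, and those of the other expressed genes from Nipponbare values too. Reads of the 97 genes can thus more easily be a fraction of the true count, which widens their intervals. The part of this in the shares given here was not tested. A further count took genes whose summed 93-11 reads lay within the quartiles of the 97, a limit chosen after the values were seen. Of the 97 genes, 49 were in it, with 8 higher (16.3%) and 6 lower (12.2%). Of the 3421 such genes expressed in 93-11, 308 were higher (9%) and 273 lower (7.98%). The minimum of 1 RPKM keeps out genes that were near 0 in either 93-11 library, and the libraries compared are 1 per group, so these are differences between libraries.

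Among the genes higher in chilled 93-11, LOC_Os08g14200 on chromosome 8 had 29.7 RPKM (387 reads) in chilled and 1.56 RPKM (26 reads) in untreated 93-11, a log2 ratio of 4.45 (3.91 to 5.11). LOC_Os09g17120, on chromosome 9, had 10.4 RPKM (79 reads) in chilled and 1.65 RPKM (16 reads) in untreated 93-11, a log2 ratio of 2.85 (2.10 to 3.76). These ranked after LOC_Os06g24990, and they were at 0 in both Nipponbare libraries as well. LOC_Os12g19170, on chromosome 12, had 22.2 RPKM (92 reads) in chilled and 3.96 RPKM (21 reads) in untreated 93-11, and LOC_Os07g36120, on chromosome 7, had 5.74 RPKM (45 reads) and 1.09 RPKM (11 reads). The other 6 genes of this class had log2 ratios from 1.57 to 2.48.

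Among the genes lower in chilled 93-11, LOC_Os02g04750 on chromosome 2 had the lowest ratio but only 2 reads in the chilled library (1.34 RPKM) and 45 reads in the untreated library (23.5 RPKM), a log2 ratio of -3.60 with an interval from -7.00 to -1.97. LOC_Os11g11320, on chromosome 11, rested on more reads, with 1.53 RPKM (17 reads) in chilled and 17.0 RPKM (242 reads) in untreated 93-11, a log2 ratio of -3.21 (-4.05 to -2.54). LOC_Os11g16500, on the same chromosome, had 1.35 RPKM (5 reads) in chilled and 11.1 RPKM (53 reads) in untreated 93-11. LOC_Os04g13260, on chromosome 4, had 1.65 RPKM (20 reads) and 7.53 RPKM (117 reads) in chilled and untreated 93-11. Also among the 14 lower genes was ChrUn20, an id that names no chromosome, with 2.64 RPKM (62 reads) in chilled and 8.44 RPKM (254 reads) in untreated 93-11.

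**Figure D3:**
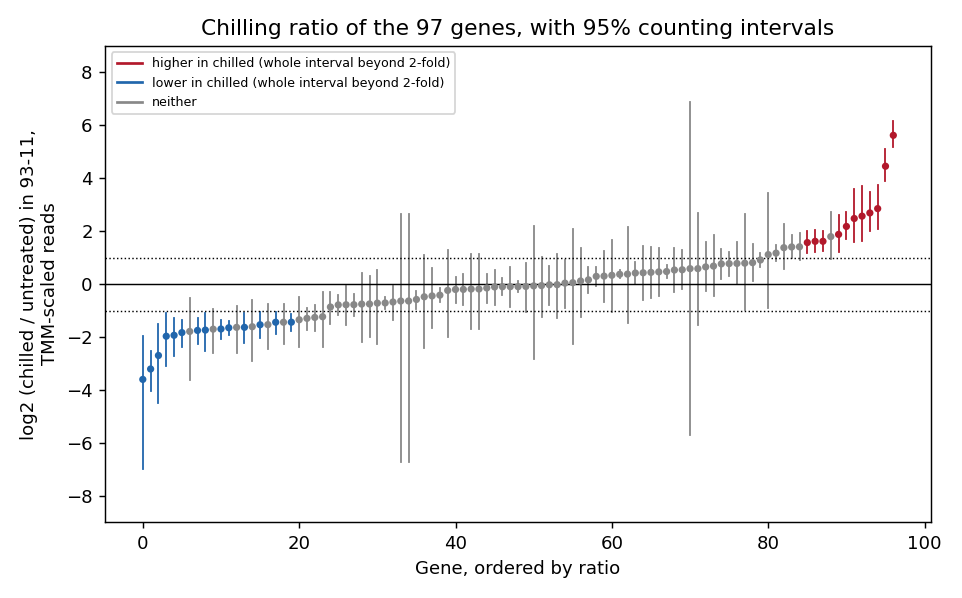
Points give the log2 ratio of chilled over untreated 93-11 (vertical axis, TMM-scaled reads) for the 97 genes in order of ratio (horizontal axis), and bars the 95% counting interval, with 2-fold limits dotted. The 11 genes higher in chilled 93-11 (red) reach 5.62, the 14 lower genes (blue) reach -3.60, and the 72 others (grey) include 3 genes with 1 read in chilled 93-11, which have the longest bars.

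The 97 genes were spread over all 12 chromosomes, with 95 on a named chromosome. Chromosome 1 held 12, chromosomes 4, 8 and 9 held 10 each, chromosome 11 held 9, and chromosome 10 held the fewest, 4. Per 1000 genes expressed in 93-11, chromosome 11 had 13.04, chromosome 9 had 11.7 and chromosome 8 had 9.98, while chromosome 2 had 3.15 and chromosome 3 had 3.18, beside 6.26 overall. The mirror set of genes silent in 93-11 had 45.0 per 1000 genes expressed in Nipponbare on chromosome 11, 51.3 on chromosome 12 and 7.55 on chromosome 3, beside 21.4 overall. Chromosome 12, highest in the mirror set, had 6.34 per 1000 in the 93-11 set. Per 1000 listed ids the order of the 93-11 set changed, with 2.935 on chromosome 9, 2.388 on chromosome 8 and 2.163 on chromosome 11. All listed ids together had 1.733. Counts of 4 to 12 genes per chromosome are small, and no test of these shares was run. The 2 genes whose id names no chromosome were ChrUn20 and ChrUn18, out of 11 such ids expressed in 93-11. ChrUn18 had 4.34 RPKM (20 reads) in chilled and 14.0 RPKM (83 reads) in untreated 93-11.

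**Figure D4:**
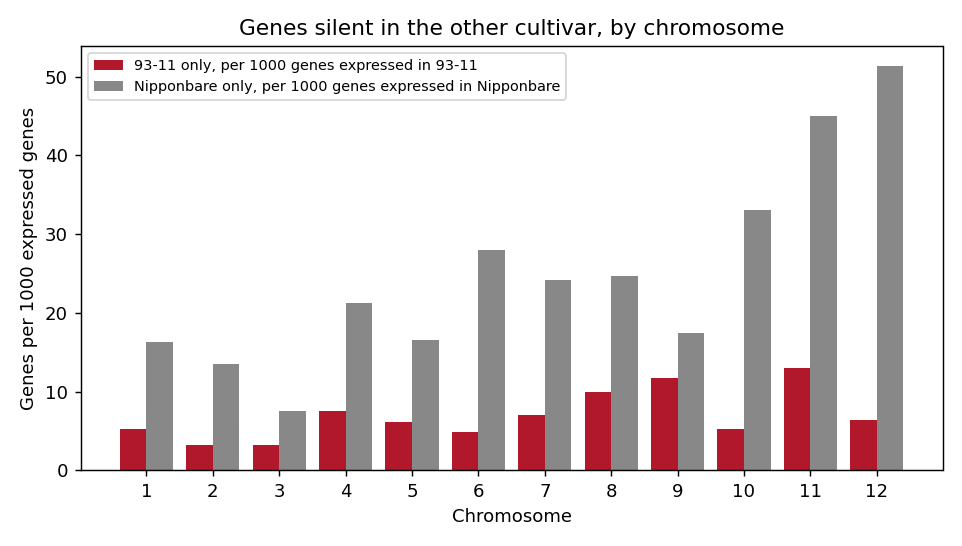
Bars give, for each chromosome, the genes expressed in 93-11 and silent in Nipponbare per 1000 genes expressed in 93-11 (red) and the genes expressed in Nipponbare and silent in 93-11 per 1000 genes expressed in Nipponbare (grey). The red bars run from 3.15 on chromosome 2 to 13.04 on chromosome 11, and the grey bars are higher on every chromosome, from 7.55 on chromosome 3 to 51.3 on chromosome 12.

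Direct neighbours among these genes were few in number. In the list of locus ids, which follows gene order along a chromosome, 4 of the 95 genes (4.21%) stood directly beside another, as 2 pairs. When ids at 0 in all 4 libraries were passed over, 8 genes did. The mirror set had 27 of 342 genes (7.89%) in 13 runs, and of all genes expressed in 93-11, 69.5% stood in runs. The share in runs grows with the number of ids in a set, and both of these sets are larger, so the shares cannot be compared directly. The 97 genes were sparse, at 1.73 per 1000 listed ids. What share such a sparse set would have in runs was not worked out, so the small number is not read as scatter. The pair on chromosome 8 was LOC_Os08g14195 and LOC_Os08g14200, whose ratios differed. The interval of the first lay inside 2-fold and the second was among the highest ratios, as given above. The pair on chromosome 7 was weak, with LOC_Os07g25760 at 1.06 RPKM in chilled and 2.28 RPKM in untreated 93-11 and LOC_Os07g25770 at 1.92 and 2.61 RPKM. With 1 id allowed between, LOC_Os01g14720 (14.2 RPKM in chilled and 7.39 RPKM in untreated 93-11) and LOC_Os01g14750 (5.35 and 6.15 RPKM) formed another pair, around an id at 0 in all 4 libraries. With up to 10 ids between, 15 of the 95 genes (15.8%) had another of them nearby, and 88 of 342 (25.7%) in the larger mirror set.

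A group of 3 genes on chromosome 11 was the closest such group, chosen after the values were seen, with 2 ids between each gene and the next. LOC_Os11g44960 had 1.01 RPKM (43 reads) in chilled and 4.01 RPKM (219 reads) in untreated 93-11, a log2 ratio of -1.75 (-2.27 to -1.29). LOC_Os11g44990 had 2.96 RPKM (113 reads) and 9.43 RPKM (461 reads), a log2 ratio of -1.44 (-1.75 to -1.15). LOC_Os11g45030 had 1.73 RPKM (5 reads) and 7.56 RPKM (28 reads), a log2 ratio of -1.79 (-3.63 to -0.51). All 3 were lower in the chilled library, the last without its whole interval beyond 2-fold. Of the ids between them, LOC_Os11g44970 and LOC_Os11g44980 had at most 3 reads in a 93-11 library, and 10 and 1 reads in untreated Nipponbare, and the others were at 0 throughout. Elsewhere on chromosome 11, LOC_Os11g11240 had 2.82 RPKM in chilled and 5.70 RPKM in untreated 93-11, and 7 ids lay between it and LOC_Os11g11320.

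**Figure D5:**
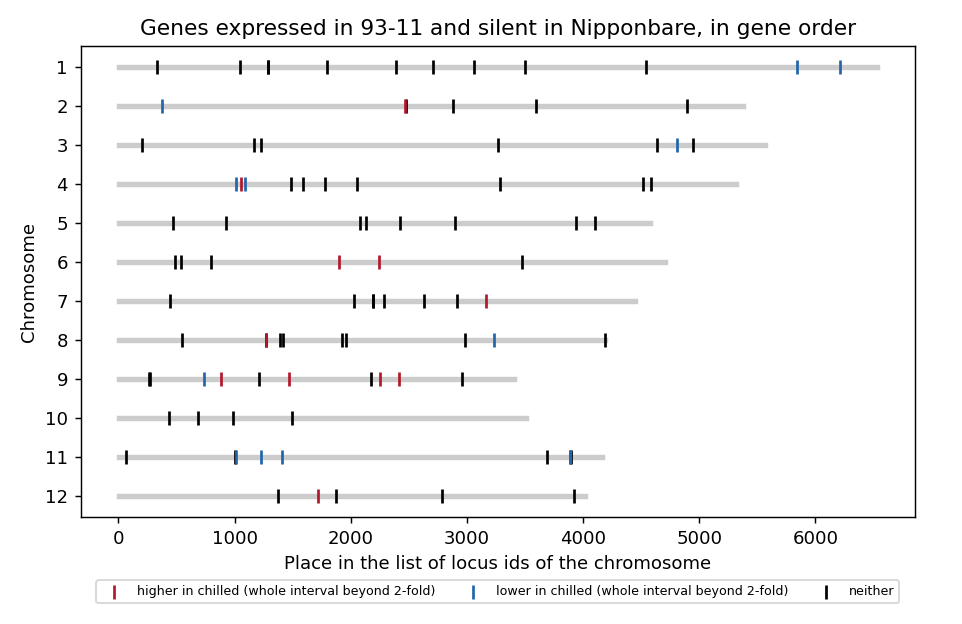
Each tick is 1 of the 95 genes with a chromosome, at its place in the chromosome's list of locus ids (horizontal axis, number of ids) on 12 grey bars (vertical axis, chromosome), coloured red where higher and blue where lower in chilled 93-11. Ticks lie on every chromosome, from 4 on chromosome 10 to 12 on chromosome 1, and ticks of close ids overlap.

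The ids on either side were counted as well. Of the 184 flanking ids that were not themselves among the 97, 34.2% were at 0 in all 4 libraries and 18.5% had at least 1 RPKM in all 4, against 19.1% and 40.9% of 24467 ids beside the other genes expressed in 93-11. The mirror set's flanking ids had 33.9% and 16.9%. A further 13.6% of the flanking ids were at 0 in both Nipponbare libraries and above 0 in a 93-11 library, against 6.24% beside the other expressed genes and 5.88% beside the mirror set. The opposite state, 0 in both 93-11 libraries and above 0 in a Nipponbare library, held 7.61% of the flanking ids, against 5.33% beside the other expressed genes and 14.4% beside the mirror set. With whole intervals beyond 2-fold in both conditions, 8 of the 184 flanking ids (4.35%) were higher in 93-11 than in Nipponbare and 2 (1.09%) were lower. Beside the other expressed genes these shares were 0.662% and 1.63%, and over all listed ids 0.807% and 1.94%. Flanking ids of the mirror set leaned the other way, with 0.619% higher and 7.59% lower in 93-11. The labels do not say whether a read could count for overlapping neighbours, and its part in these counts was not tested.

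Among these flanking ids, LOC_Os05g24580, beside LOC_Os05g24570, had 4.30 RPKM in chilled and 6.61 RPKM in untreated 93-11, against 0.066 RPKM in chilled and 0 in untreated Nipponbare. LOC_Os11g14160, beside LOC_Os11g14150, had 3.01 RPKM in chilled and 4.97 RPKM in untreated 93-11, against 0.242 and 0.103 RPKM in chilled and untreated Nipponbare. The most abundant were LOC_Os05g28090 (71.4 RPKM in chilled and 198 RPKM in untreated 93-11, 30.3 RPKM in chilled and 44.9 RPKM in untreated Nipponbare) and LOC_Os09g14600 (32.8 and 81.8 RPKM in 93-11, 5.19 and 14.1 RPKM in Nipponbare). The 2 that were lower in 93-11 were LOC_Os01g04510, with 5.83 RPKM in chilled and 1.80 RPKM in untreated 93-11 against 17.1 and 15.0 RPKM in Nipponbare, and LOC_Os06g39110, with 0.364 and 0.852 RPKM against 2.11 and 4.77 RPKM. These flanking ids were chosen after their values were seen.

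Ids whose number does not end in 0 made up 9 of the 97 genes (9.28%), beside 7.32% of genes expressed in 93-11, 6.31% of all listed ids and 18.1% of the mirror set. Of the 10 most abundant genes, 4 had such an id. None of the 33 measured loci in the lists of resistance genes and of genes known to differ between japonica and indica was among the 97, with 13 loci in the list of resistance genes and 20 in the other. The 97 genes were 1.73 per 1000 listed ids, so lists of this size would rarely hold one, and nothing is read from the absence. Of the 33 loci, 3 were at 0 in both Nipponbare libraries and above 0 in a 93-11 library, and 3 were the other way round. The highest of the first 3 was LOC_Os06g22460, in the list of resistance genes, with 0.169 RPKM in chilled and 1.82 RPKM in untreated 93-11, so it missed the minimum in the chilled library.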

How the data were processed

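Messenger RNA of 4 pooled samples was sequenced on an Illumina instrument, per the labels' protocols. The authors deposited 1 value for each of 55985 ids per library, and no source used here names its unit. The deposited values were taken as RPKM because all ids above 0 could be written as whole reads over a whole length and a library total. The submitters' processing notes list HTSeq 0.5.4p3, TopHat2 2.0.9 and Bowtie2 2.0.6. For genome build, annotation, strand use and the genome that 93-11 reads were mapped to, no source used here gives them. Reads lost at sequence differences, or shared by near-identical genes, could change values.

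Whole reads were worked out from the RPKM values as the smallest whole length that fits all libraries. All 36941 ids above 0 could be solved, and the reads sum to 97.7 to 98.1 percent of the totals. Reads are known up to a common whole factor, so intervals err on the wide side. Ratios used TMM factors (trims of 0.3 and 0.05) in Python 3.11.15 with scipy 1.17.1. The recovery of reads from known totals, the TMM factor and the counting intervals at a known scaling were tested on simulated data. The working out of library totals and the counts by position were not. No test was run, since every group has 1 library. The genes, lists and comparisons were chosen with earlier results of these data known. Named genes are the 10 with the highest mean level, the 5 highest and 5 lowest ratios among genes with at least 20 reads in 93-11, the members of the longest runs and the genes nearest the limits of the rule. The locus lists and tissue markers came from general knowledge. A name was printed only where the RefSeq table (GCF_034140825.1) places it on the same chromosome.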

Additional observations from a re-analysis of the deposited data

How the results depend on the processing

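The number of silent genes, 97, was 153 with a minimum of 0.5 RPKM, 52 with 2 RPKM and 151 when chilled Nipponbare alone had to be at 0. It was 122 with under 0.1 RPKM allowed in Nipponbare, 122 when untreated Nipponbare alone had to be at 0, and 78 with at least 10 reads in each 93-11 library. Genes higher in chilled 93-11 numbered 8 to 17 over the alternatives and genes lower 12 to 24. By the ratio alone they were 17 and 24, and with a pseudocount of 1 RPKM 23 were lower. With values as deposited the median log2 ratio of the 97 genes was -0.32, and that of all genes expressed in 93-11 moved to -0.21. The median of the 97 genes stayed below 0 in all 4 of its alternatives. The genes in runs numbered 8, against 4, when ids at 0 in all 4 libraries were passed over. The cause of each shift was not tested beyond the change of limit itself. No paired analysis was possible because each group has 1 library, and no replicate could be left out within a group. Depth limits the weakest genes most, since 19 had fewer than 10 reads in a 93-11 library.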

Other observations

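Genes silent in Nipponbare but past 1 RPKM in a single 93-11 library lie outside the rule. There were 71 such genes with at least 1 RPKM in chilled 93-11 only and 96 in untreated 93-11 only. The most abundant in chilled 93-11 were near each other on chromosome 4. LOC_Os04g12710 had 112 RPKM (903 reads) in chilled and 0.097 RPKM (1 read) in untreated 93-11, and LOC_Os04g12690 had 77.0 RPKM (764 reads) and 0.079 RPKM (1 read). Their log2 ratios were 9.82, with an interval from 7.92 to 15.71, and 9.58 (7.68 to 15.47). LOC_Os07g24400 had 15.5 RPKM (568 reads) in chilled and 0.021 RPKM (1 read) in untreated 93-11. The most abundant in untreated 93-11 was LOC_Os11g07140, with 0.576 RPKM (15 reads) in chilled and 27.3 RPKM (911 reads) in untreated 93-11, a log2 ratio of -5.29 (-6.18 to -4.61). All of these were at 0 in both Nipponbare libraries, and they were chosen after their values were seen.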
